A study of Homo sapiens with 6 samples.

Results

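The genes that write, read and erase DNA methylation were examined in bulk RNA-seq of H9 cells, a clonal CTCL (cutaneous T-cell lymphoma) cell line. The 9 members were the rows of the count table with the gene names DNMT1, DNMT3A, DNMT3B, UHRF1, UHRF2, MBD2, TET1, TET2 and TET3, out of 61541 Ensembl genes. All 9 were found once each, and all 9 were among the 17678 genes that passed the filter on low counts. The cells carry the genotype label WT in both groups and were treated either with DMSO, the vehicle (3 libraries, no time given in the labels), or with AZD4573, a selective inhibitor of the transcription elongation kinase CDK9, for 4 h (3 libraries). The figure legends of the study give the dose as 50 nM. Nothing in the labels says whether the 3 libraries of a group came from separate cultures, so that the p-values measure the spread between these libraries only.

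DNA methylation in mammals is the addition of a methyl group to cytosine, mostly where cytosine is followed by guanine (CpG). DNMT3A and DNMT3B place the mark on unmethylated DNA, whereas DNMT1 copies it to the new strand at replication, guided by UHRF1, which binds hemimethylated CpG. MBD2 binds fully methylated CpG and brings the NuRD repressor complex with it. The TET dioxygenases oxidise methylcytosine, which opens the way to its removal by base excision. DNMT3A and TET2 are well known in this field as genes that are recurrently mutated in T-cell lymphoma. The sequence of these genes in H9 cells was not analysed here.

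Total counts ranged from 52101868 to 76571157 per library, and each member had at least 85 counts in every library. Of 13 T-cell markers, 11 were above 1 CPM (counts scaled to the library total) in every library, whereas CD2 and CD7 stayed below it. Their summed level was 1670 CPM in the DMSO libraries and 2010 CPM in the AZD4573 libraries. Among the markers of other cell types, CD79A (B cell, 57.2 to 94.2 CPM), EPCAM (epithelial, 126 to 171 CPM) and COL1A1 (fibroblast, 3.39 to 7.71 CPM) were present, whereas KRT5, COL3A1, PDGFRB, PAX5, MS4A1 and all 4 myeloid markers were below 1 CPM and KRT14 was at 0 in every library. The part of any other cell in the results was not tested. HEXIM1, a transcript known to depend on CDK9 activity, fell by 3.49 on the log2 scale upon AZD4573 treatment (standard error, SE, 0.0555, adjusted p = 3.8e-13), and MCL1 fell by 0.86 (SE 0.0434, adjusted p = 1.0e-09). These adjusted p-values and those that follow are from edgeR's quasi-likelihood test over all 17678 genes.

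Upon AZD4573 treatment, 6 of the 9 genes were lower and 2 were higher at an adjusted p under 0.05, and TET3 did not pass the test. Over all tested genes, 37.4% were lower and 37.3% higher by this rule. With a fold change of at least 1.5 in addition, 4 genes (TET1, TET2, DNMT3B and UHRF1) were lower and 1 (DNMT3A) was higher, where all tested genes gave 23.7% and 22.7%. In each of the 6 lower genes every AZD4573 library lay below every DMSO library, and in both higher genes every AZD4573 library lay above. Such a separation was found for 38.7% of all tested genes in the lower direction and 39.0% in the higher direction. The median log2 fold change of the 9 genes was -0.48, against 0.03 for all tested genes. These are bulk libraries, in which fewer cells with a transcript and less of it per cell cannot be told apart.

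Levels between genes were compared as TMM-scaled CPM per kb of the Ensembl canonical transcript (TMM is edgeR's scaling factor between libraries, and ± is the SD over the 3 libraries of a group throughout). With DMSO, the maintenance pair stood highest, with DNMT1 at 119 ± 8.69 and UHRF1 at 94.4 ± 3.63 CPM per kb. MBD2 followed at 27.0 ± 0.884, UHRF2 at 20 ± 2.11 and TET3 at 10.6 ± 0.326 CPM per kb. DNMT3A was at 6.07 ± 0.461, DNMT3B at 2.54 ± 0.134, TET2 at 1.85 ± 0.111 and TET1 at 0.835 ± 0.0838 CPM per kb. No pair of neighbours in this order overlapped between its 3 and 3 values.

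With AZD4573 the order was the same but for DNMT3A, which at 10.9 ± 0.524 CPM per kb stood beside TET3 at 10.5 ± 0.640, with overlapping libraries. DNMT1 was at 144 ± 5.64 and UHRF1 at 46.3 ± 3.23 CPM per kb. At the low end, DNMT3B was at 1.22 ± 0.0436, TET2 at 0.671 ± 0.136 and TET1 at 0.198 ± 0.0483 CPM per kb. The order depends on the length used. With the union of all annotated exons as the length, UHRF1 (71.5 CPM per kb) stood above DNMT1 (40.8) with DMSO and below it with AZD4573 (35.1 against 49.3). On this basis TET3 (9.89 with DMSO) also stood above UHRF2 (7.22). With AZD4573, DNMT3A (7.45) then stood below TET3 (9.74) and above UHRF2 (5.18).

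**Figure D1:**
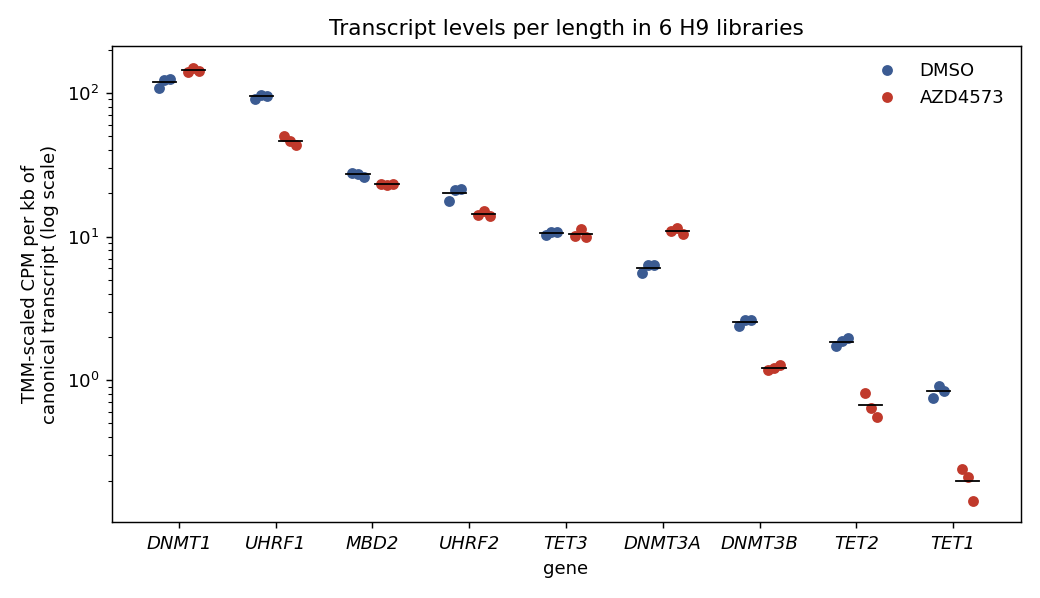
TMM-scaled CPM per kb of canonical transcript (log axis) for the 9 genes, with 1 point per library and a black bar at the mean of each group of 3. On this length DNMT3A rises to the level of TET3 with AZD4573, and TET1 falls furthest, to 0.198 CPM per kb.

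Among the writers, the 3 DNA methyltransferases moved in different directions. DNMT1 (ENSG00000130816, chromosome 19 from 10133342 to 10231286 of GRCh38, minus strand), the maintenance enzyme, was at 574, 651 and 656 TMM-scaled CPM with DMSO and at 738, 792 and 743 CPM with AZD4573. The lowest AZD4573 library was thus above the highest DMSO library, and DMSO replicate 1 was the lowest of all. On the log2 scale DNMT1 rose by 0.27 (SE 0.0542, adjusted p = 0.00045), or 1.21-fold, but with libraries scaled to their mitochondrial mRNAs this turned to -0.46 (adjusted p = 1.3e-06).

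DNMT3A (ENSG00000119772, chromosome 2 from 25227855 to 25342590, minus strand), a de novo methyltransferase, showed the larger rise of the 2 higher genes. It was at 52.2, 59.5 and 59.9 CPM with DMSO and at 102, 108 and 97.9 CPM with AZD4573. All 3 AZD4573 values were well above the DMSO range. The rise was 0.84 on the log2 scale (SE 0.0595, adjusted p = 2.3e-08), or 1.80-fold, and it was 0.11 (adjusted p = 0.17) with the mitochondrial scaling. Also in raw counts DNMT3A was higher with AZD4573 (5208 to 6143) than with DMSO (4094 to 4410), although the AZD4573 libraries held fewer counts in total.

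DNMT3B (ENSG00000088305, chromosome 20 from 32762385 to 32809359, plus strand), the second de novo methyltransferase, moved the other way. It was at 10.3, 11.3 and 11.3 CPM with DMSO and at 5.13, 5.28 and 5.50 CPM with AZD4573. The groups lay far apart, and the values within each group were close. With a log2 fold change of -1.05 (SE 0.0868, adjusted p = 1.1e-07), 48.3% of the DMSO level was left, and the change was negative in each of 13 alternative fits.

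The windows of 250 bases before the most upstream start that RefSeq lists for DNMT3A and DNMT3B are shown because these paralogs moved in opposite directions, with each CpG, the site that these enzymes methylate, in capitals. They are from RefSeq on GRCh38.p14 and are written 5′ to 3′ on the strand of the gene, chr2:25342591-25342840 on the minus strand for DNMT3A and chr20:32779602-32779851 on the plus strand for DNMT3B.
DNMT3A: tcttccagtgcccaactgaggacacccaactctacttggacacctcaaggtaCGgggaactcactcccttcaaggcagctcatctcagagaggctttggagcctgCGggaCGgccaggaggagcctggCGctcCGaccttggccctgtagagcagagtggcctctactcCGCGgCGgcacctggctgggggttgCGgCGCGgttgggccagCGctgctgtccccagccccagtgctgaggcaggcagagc
DNMT3B: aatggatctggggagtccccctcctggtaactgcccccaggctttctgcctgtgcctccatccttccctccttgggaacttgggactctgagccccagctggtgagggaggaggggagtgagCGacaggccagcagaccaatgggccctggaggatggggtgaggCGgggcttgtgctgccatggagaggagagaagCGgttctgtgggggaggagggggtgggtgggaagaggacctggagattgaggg
The DNMT3A window holds 12 CpG and the DNMT3B window 3, where the median over 27305 genes with 1 window each was 10 (quartiles 3 and 23). They are windows at unlike places, since that of DNMT3A lies directly before the first annotated base of the gene, whereas that of DNMT3B lies inside the annotated span of the gene, which begins further upstream at 32762385. RefSeq lists 6 starts for DNMT3A and 1 for DNMT3B. The counts are per gene and do not tell which start was used, and methylation of these windows was not measured.

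All 3 readers were lower. UHRF1 (ENSG00000276043, chromosome 19 from 4903080 to 4962154, plus strand), the partner that brings DNMT1 to hemimethylated DNA, was at 352, 379 and 373 CPM with DMSO and at 194, 179 and 169 CPM with AZD4573. The highest AZD4573 library lay far below the lowest DMSO library. UHRF1 had a log2 fold change of -1.03 (SE 0.0523, adjusted p = 1.1e-09), leaving 49.1% of the DMSO level. UHRF1 and DNMT1, the enzyme it guides, thus moved apart in the same libraries, although with the mitochondrial scaling both were lower.

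UHRF2 (ENSG00000147854, chromosome 9 from 6413151 to 6507054, plus strand), a paralog of UHRF1 with the same domain layout, fell less. It was at 63.0, 75 and 76.9 CPM with DMSO and at 50.8, 53.9 and 49.4 CPM with AZD4573, again without overlap. DMSO replicate 1 was the closest to the AZD4573 libraries. Its log2 fold change was -0.48 (SE 0.0701, adjusted p = 3.1e-05). One pseudogene, UHRF2P1, could share reads with it.

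MBD2 (ENSG00000134046, chromosome 18 from 54151606 to 54224669, minus strand), the methyl-CpG reader of NuRD, had the smallest of the called falls. It was at 141, 137 and 132 CPM with DMSO and at 118, 115 and 117 CPM with AZD4573. The groups did not overlap, since both were tight. This made a log2 fold change of -0.23 (SE 0.0421, adjusted p = 0.00023), which leaves 85.3% of the DMSO level.

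The TET dioxygenases held both the largest falls of the 9 genes and the one gene that did not pass the test. TET1 (ENSG00000138336, chromosome 10 from 68560337 to 68694487, plus strand), the TET enzyme known best from embryonic stem cells, was at 7.18, 8.78 and 8.12 CPM with DMSO and at 2.3, 2.02 and 1.39 CPM with AZD4573. In counts this was 563, 643 and 598 against 117, 115 and 85. TET1 had a log2 fold change of -2.08 (SE 0.157, adjusted p = 4.4e-08), leaving 23.6% of the DMSO level. Of all tested genes, 2.54% had a log2 fold change at or below that of TET1.

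TET2 (ENSG00000168769, chromosome 4 from 105145875 to 105279816, plus strand), the TET enzyme best known from blood cells, was at 16.6, 17.8 and 18.7 CPM with DMSO and at 7.84, 6.18 and 5.28 CPM with AZD4573. AZD4573 replicate 1 was the highest of its group in both TET1 and TET2. The log2 fold change of TET2 was -1.47 (SE 0.116, adjusted p = 7.0e-08), leaving 36.2% of the DMSO level. It ranged from -1.63 to -1.35 with each library left out in turn.

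TET3 (ENSG00000187605, chromosome 2 from 73984910 to 74108176, plus strand), the most abundant of the family here, was at 123, 130 and 131 CPM with DMSO and at 122, 135 and 121 CPM with AZD4573. The groups overlapped, since AZD4573 replicate 2 was above all DMSO libraries and the other two were below them. TET3 had a log2 fold change of -0.02 (SE 0.0499, 95% interval from -0.13 to 0.09, adjusted p = 0.70). With library size as the only scaling it was -0.13 (adjusted p = 0.038), and with the mitochondrial scaling -0.76 (adjusted p = 3.3e-09), close to the median of all genes in that scaling. Its exons share 390 bases (3.01%) with a lncRNA gene, ENSG00000235499, on the same strand.

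The windows of 250 bases before the most upstream RefSeq start are shown for TET1 and TET2, the genes with the largest falls, with each CpG in capitals. They are from RefSeq on GRCh38.p14 and lie on the plus strand, at chr10:68560087-68560336 for TET1 and chr4:105145625-105145874 for TET2.
TET1: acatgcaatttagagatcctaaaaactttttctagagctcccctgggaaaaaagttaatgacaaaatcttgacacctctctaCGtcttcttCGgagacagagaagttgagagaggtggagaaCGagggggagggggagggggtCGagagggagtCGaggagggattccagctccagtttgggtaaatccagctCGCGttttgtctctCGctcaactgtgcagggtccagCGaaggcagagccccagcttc
TET2: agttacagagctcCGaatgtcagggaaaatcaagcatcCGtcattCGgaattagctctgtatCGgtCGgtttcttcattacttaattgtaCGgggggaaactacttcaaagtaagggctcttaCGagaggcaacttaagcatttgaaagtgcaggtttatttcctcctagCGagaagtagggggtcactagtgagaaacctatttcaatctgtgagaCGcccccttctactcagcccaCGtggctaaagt
The TET1 window holds 9 CpG and the TET2 window 10, near the median of 10 over all windows. The window of TET3, which did not pass the test, holds 37 CpG. Those of the lower genes UHRF1, UHRF2 and MBD2 hold 28, 23 and 21 CpG, and that of DNMT1 holds 21. These are also unlike places, since the DNMT1 and UHRF1 windows lie inside the annotated spans of their genes. Annotated exons of the same gene cover 182 of the 250 bases for DNMT1, 71 for UHRF1 and 48 for UHRF2. No relation between CpG content and response was tested.

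Within a library, the ratio of one gene's counts to another's does not depend on how libraries are scaled. In 7 ratios among the 9 genes, the DMSO and AZD4573 libraries never overlapped, and each gave p = 0.10 in a two-sided exact permutation test, which is the smallest value that 3 libraries against 3 can give (also 0.10 with Benjamini-Hochberg adjustment over the 7). Several of the ratios share a gene. Of single tested genes, 38.7% separated in the lower and 39.0% in the higher direction, and the share over all pairs of genes was not computed. The log2 ratio of DNMT3B to DNMT3A counts was -2.34, -2.40 and -2.40 with DMSO and -4.32, -4.35 and -4.15 with AZD4573, a ratio 3.72-fold lower. DNMT3A rose 1.49-fold against DNMT1, from a log2 ratio of -3.45 ± 0.00441 to -2.88 ± 0.0377. The ratio of UHRF1 to DNMT1, the pair that acts together at the replication fork, was 2.47-fold lower, with log2 values of -0.71, -0.78 and -0.81 with DMSO and -1.93, -2.14 and -2.14 with AZD4573.

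For the remaining pairs, UHRF2 gained 1.47-fold on UHRF1, from a log2 ratio of -2.37 ± 0.105 to -1.81 ± 0.105. TET1 lost 1.54-fold against TET2, although TET2 itself was lower. TET3 gained 2.74-fold on TET2, with log2 ratios of 2.90, 2.87 and 2.80 with DMSO and 3.96, 4.45 and 4.52 with AZD4573. The summed counts of the 3 TET genes against those of the 3 DNMT genes were 1.43-fold lower, with a log2 ratio of -2.17 ± 0.0544 with DMSO and -2.69 ± 0.0351 with AZD4573.

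**Figure D2:**
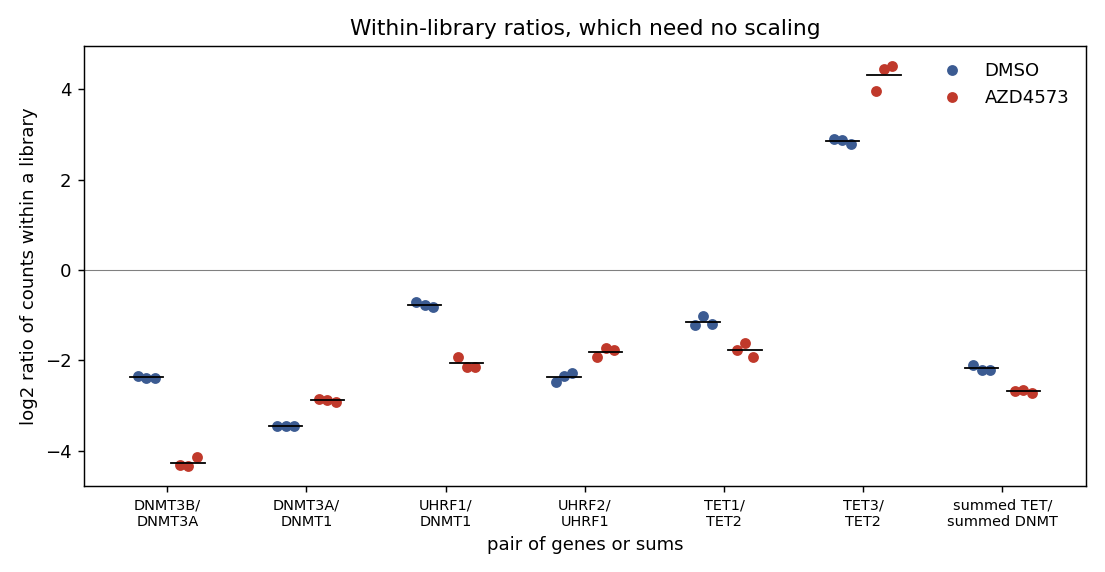
Log2 ratio of counts within a library for 6 pairs of genes and for the summed TET against the summed DNMT counts, with 1 point per library and a black bar at the group mean. The groups are apart in all 7 ratios, and DNMT3B to DNMT3A shows the widest gap, at -1.90 on the log2 scale.

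The make-up of each family was computed as the share of its counts per kb of canonical transcript. TET3 made up 79.8% ± 0.583 of the TET transcripts with DMSO and 92.3% ± 1.58 with AZD4573. The share of TET2 went from 13.9% ± 0.382 to 5.93% ± 1.21 and that of TET1 from 6.27% ± 0.441 to 1.74% ± 0.396. Every AZD4573 library held a higher share of TET3 than every DMSO library (90.5%, 92.9% and 93.5% against 80.5%, 79.5% and 79.5%).

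In the DNMT family DNMT1 dominated both groups, at 93.2% ± 0.0268 with DMSO and 92.2% ± 0.143 with AZD4573. The de novo enzymes kept their order with a wider gap, in that the share of DNMT3A went from 4.76% ± 0.0158 to 7.0% ± 0.172 and that of DNMT3B from 1.99% ± 0.0419 to 0.786% ± 0.0425. UHRF2 made up 17.5% ± 1.04 of the UHRF transcripts with DMSO and 23.7% ± 1.31 with AZD4573. With exon unions as lengths the levels of these shares change (TET3 from 83.8% to 94.3%, UHRF2 from 9.15% to 12.9%, DNMT3A from 8.92% to 13%). Each share moved in the same direction on both lengths.

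**Figure D3:**
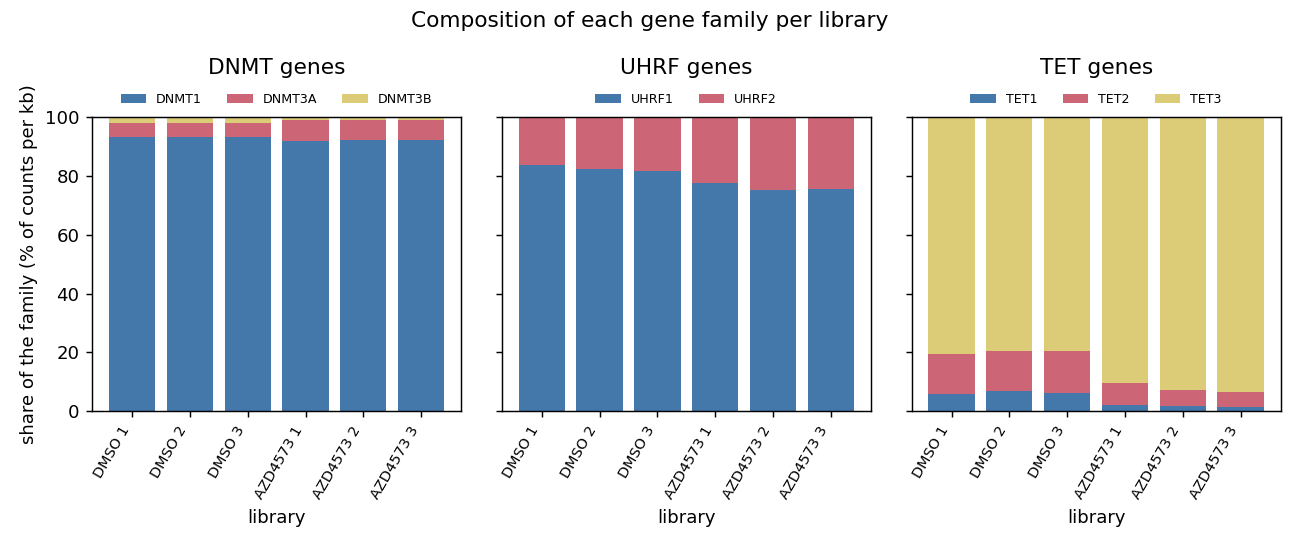
Share of each gene in the counts per kb of its family (percent, stacked to 100) in the 6 libraries, for the DNMT, UHRF and TET genes. TET3 fills 79.5 to 80.5% of its family with DMSO and 90.5 to 93.5% with AZD4573.

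Which of these genes counts as higher depends on the scaling. The 13 mRNAs of the mitochondrial genome, made by a polymerase other than RNAP2, took 3.04 to 3.22% of the counts with DMSO and 4.67 to 4.98% with AZD4573. With these as the reference, the median over all tested genes was -0.71 in place of 0.03 on the log2 scale, and the 9 genes moved with it. On that scale 8 genes were lower and 0 higher, and DNMT3A had no call. Relative to the median of all genes in the main fit, DNMT3A stood at 0.82 and DNMT1 at 0.25 above it, and TET3 at -0.05. TET1 (-2.11), TET2 (-1.49), DNMT3B (-1.08) and UHRF1 (-1.05) stood furthest below that median. The amount of RNA per cell was not measured in these data.

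**Figure D4:**
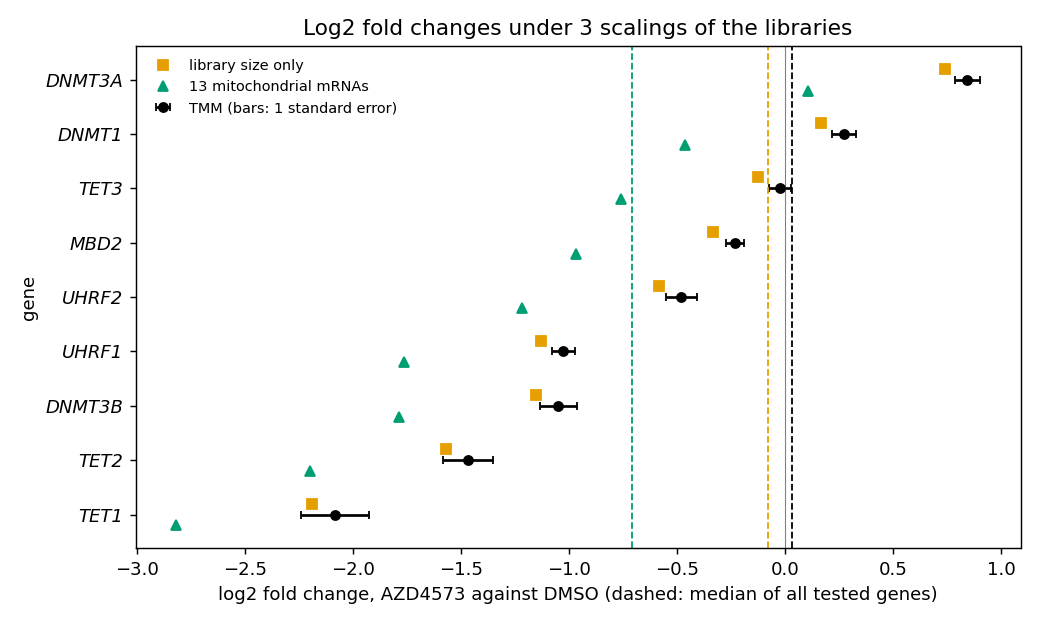
Log2 fold change of AZD4573 against DMSO for the 9 genes under TMM (black, bars of 1 SE), library size only (orange squares) and scaling to 13 mitochondrial mRNAs (green triangles), with dashed lines at the median of all tested genes in each. TET1, TET2, DNMT3B and UHRF1 lie left of every dashed line, and DNMT3A lies right of all 3.

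The partners and cofactors of these genes were followed through 7 lists from general knowledge of the pathway, with 75 genes in all, of which 73 were tested. The lists were chosen with earlier results of these data known, so that their counts and medians are no independent test. At an adjusted p under 0.05, 40 were lower, 23 higher and 10 past neither side, with a median log2 fold change of -0.20 against 0.03 for all tested genes. The counts of each list that follow are by the same rule, by which 37.4% of all tested genes were lower and 37.3% higher, and with lists of 8 to 14 tested genes they are given as a description. Of the 9 genes on the list of other methyl-CpG readers and MBD-fold relatives, 5 were lower and 4 higher (median -0.59). ZBTB38 and MBD1, which bind methylated DNA, had log2 fold changes of -1.45 (adjusted p = 4.4e-08) and -1.27 (adjusted p = 7.9e-10). MBD3, the paralog that replaces MBD2 in NuRD, went from 211 ± 7.70 to 140 ± 2.87 CPM, a log2 fold change of -0.59 (adjusted p = 2.8e-08). MBD6 rose by 1.07 and MBD5 by 0.64 on the log2 scale. Both carry the MBD fold and, like MBD3, are not known to bind methylated DNA selectively. Exons of MBD6 share 10.3% of their bases with genes of the opposite strand, DDIT3 among them, which counting without strand cannot separate.

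Of the 12 NuRD subunits 6 were lower and 4 higher (median -0.04). With a fold of at least 1.5 in addition 0 were called in either direction, where all tested genes gave 23.7% lower and 22.7% higher. Of its ATPases, CHD4 had a log2 fold change of -0.11 (adjusted p = 0.023), with 53.5% of its exon bases shared with other genes. CHD3 had one of 0.25 (adjusted p = 0.00016), with 0 shared exon bases. MTA3 and MTA2 had the lowest values (-0.33 and -0.30) and GATAD2B and HDAC1 the highest (0.56 and 0.47). MBD2 (-0.23) thus lay within the range of the complex that it recruits.

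On the list of partners of maintenance and de novo methylation, which also holds the tRNA methyltransferase TRDMT1, 5 of 8 tested genes were lower and 1 was higher (median -0.35). HELLS, the remodeler that opens chromatin for methylation, went from 94.2 ± 5.97 to 59.8 ± 2.76 CPM (log2 fold change -0.66, adjusted p = 1.6e-07), and CDCA7, its partner, from 154 ± 4.21 to 108 ± 4.82 CPM (-0.51, adjusted p = 2.7e-07). PCNA, the sliding clamp that DNMT1 binds, had a log2 fold change of -0.51 and USP7, a deubiquitinase that binds DNMT1 and UHRF1, one of -0.20. LIG1, the replicative DNA ligase that UHRF1 also binds, rose with DNMT1, by 0.49 on the log2 scale (adjusted p = 1.8e-07). TRDMT1, the homolog of DNMT1 that methylates tRNA, had the lowest value of the list (-0.88). PCLAF was at 0.12 with an adjusted p of 0.053. The count of higher genes was 2 in place of 1 without DMSO replicate 1, without AZD4573 replicate 1, with RLE factors and with at least 10 counts in every library. DNMT3L and CDCA7L were not tested, since their counts were too low.

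On the list for base excision after TET oxidation, which also holds the TET partner OGT, 9 of 14 genes were lower and 4 higher (median -0.29). TDG, the glycosylase that cuts out the oxidised bases, went from 146 ± 2.88 to 81.8 ± 5.24 CPM (log2 fold change -0.83, adjusted p = 4.9e-09), and so moved with TET1 and TET2. The lowest values were those of GADD45G (-3.42), with a mean of 1.92 CPM with DMSO, and GADD45A (-2.66), both stress-response genes. OGT, the sugar transferase that binds TET2 and TET3, went the other way, from 462 ± 34.5 to 984 ± 37.6 CPM (1.09, adjusted p = 9.7e-10). NEIL1 rose by 1.22, with 30.5% of its exon bases shared with other genes. Among 8 proteins with a CXXC domain, which binds unmethylated CpG, 6 were lower and 1 higher (median -0.40). They ran from KDM2B (-1.14) and CXXC4 (-0.85) to FBXL19 (-0.01, adjusted p = 0.81) and KMT2A (0.24, with 19.3% of its exon bases shared).

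The cofactors were followed through genes of their metabolism. On the list for the methionine cycle, which supplies S-adenosylmethionine to the DNMT enzymes, 5 of 10 genes were lower and 3 higher (median -0.31). The list also holds AHCYL1 (higher) and AHCYL2 (lower), which resemble AHCY but are not known to act as that enzyme. MAT2A, the synthetase of S-adenosylmethionine, had the lowest value and went from 790 ± 16.2 to 314 ± 17.7 CPM (log2 fold change -1.33, adjusted p = 6.5e-11), with 12.5% of its exon bases shared with GGCX on the opposite strand. MTRR followed at -0.56, whereas AHCYL1 (0.67) and ADK (0.21) were the highest and AHCY, which clears the product of methylation, had a log2 fold change of 0.13 (adjusted p = 0.020). With library size as the only scaling, 1 gene of this list was higher in place of 3.

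The last list covers the metabolism of 2-oxoglutarate, which the TET enzymes consume, and of 2-hydroxyglutarate, which inhibits them. It also holds SDHA, SDHB, SDHC, SDHD and FH, which act on succinate and fumarate instead. Of its 12 genes 4 were lower and 6 higher (median 0.08), with SDHB (0.20) and SDHC (0.38) among the higher and FH among the lower. IDH1 and IDH2, the cytosolic and the mitochondrial NADP-dependent isocitrate dehydrogenases, moved apart, at -0.35 (adjusted p = 0.00015) and 0.58 (adjusted p = 1.6e-07). D2HGDH, which removes D-2-hydroxyglutarate, rose from 10.8 ± 1.08 to 36.3 ± 1.78 CPM (log2 fold change 1.76, adjusted p = 3.1e-10), with 18.6% of its exon bases shared with genes of the opposite strand. IDH3B had the next highest value (0.58), and IDH3A (-0.67, with 38.8% of its exon bases shared with other genes) and FH (-0.62) the lowest. As for the 9 genes themselves, the split into lower and higher genes of each list depends on the scaling, and with the mitochondrial scaling all 12 NuRD subunits were lower.

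**Figure D5:**
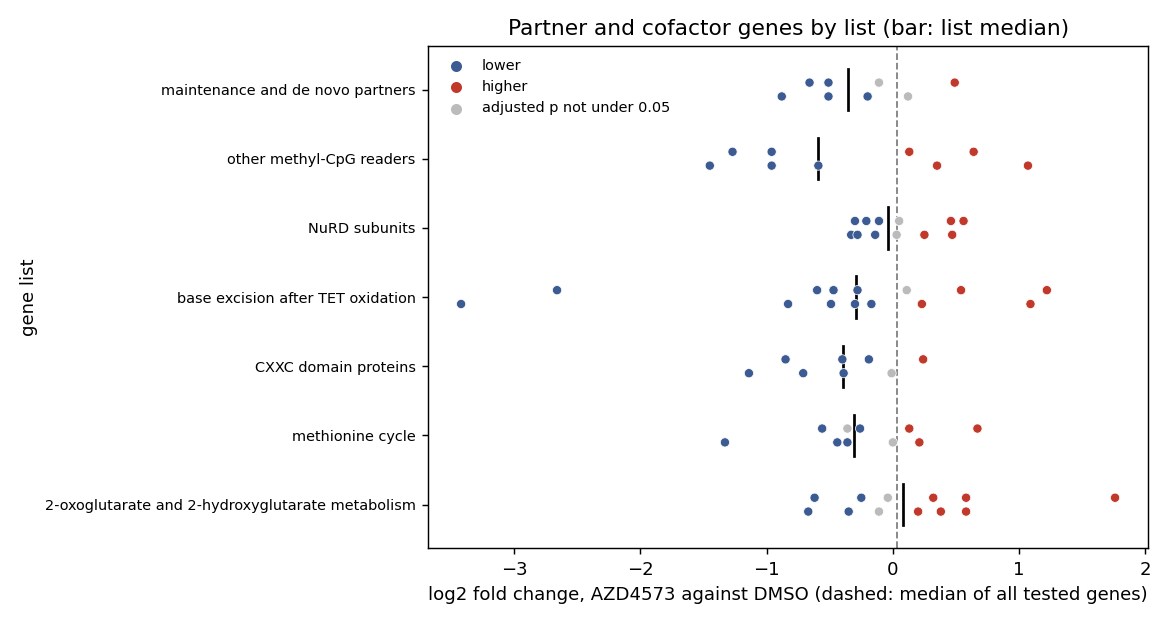
Log2 fold change of AZD4573 against DMSO for each tested gene of the 7 lists, with 1 point per gene (blue lower, red higher, grey with an adjusted p not under 0.05), a black bar at the median of the list and a dashed line at the median of all tested genes (0.03). The list of other methyl-CpG readers, which includes MBD-fold relatives, spreads from -1.45 to 1.07, whereas the NuRD subunits stay between -0.33 and 0.56.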

How the data were processed

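Bulk RNA-seq of H9 cells comprised 3 DMSO and 3 AZD4573 libraries, assigned by their labels. The authors trimmed reads with Cutadapt 2.3, used STAR 2.7.8a for alignment to GRCh38 (ENSEMBL), and deposited expected counts per gene, in whole numbers and not normalized, from RSEM 1.3.3 with default parameters, which ignore strand. The labels describe poly(A) selection and the supplemental methods rRNA depletion. Reads of near-identical sequences are divided by RSEM between genes.

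Of 61546 entries, 5 that name no Ensembl gene were left out. Counts were rounded, filtered with edgeR's filterByExpr (minimum count 10), scaled by TMM and tested with the quasi-likelihood test of edgeR 4.0.16 in R 4.3.3, with Benjamini-Hochberg adjustment over 17678 genes. Standard errors were derived from the F statistic. Alternatives were RLE factors, library size only, scaling to 13 mitochondrial mRNAs, other filters, each library left out, a replicate block, a fold of at least 2 and DESeq2 1.42.0. Exon unions as lengths were added after seeing the data. The main fit did not treat same-numbered libraries as paired, and the labels do not say whether they were. The fit was tested on simulated data in which few genes changed and no overall shift was drawn. That test cannot decide between the scalings. Gene models were from GENCODE release 44 on GRCh38, and promoter windows from RefSeq.

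The members and lists were chosen with earlier results of these data known. Named genes were the 9 members, the 2 lowest and 2 highest of each list (at least 1 CPM), fixed partners of the members, and HEXIM1 and MCL1. CHD3 was named in addition, beside CHD4. Exons of DNMT1 share 83 bases with S1PR2, and DNMT3AP1 and TET1P1 are pseudogenes named after members.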

Additional observations from a re-analysis of the deposited data

How the results depend on the processing

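DNMT3B, UHRF1, UHRF2, MBD2, TET1 and TET2 stayed lower with an adjusted p under 0.05 in each of 13 alternative fits. With the mitochondrial scaling, 0 of the 9 genes were higher, with or without a fold of at least 1.5, and 7 were lower by at least 1.5-fold in place of 4. DNMT1 reversed there to -0.46, and DNMT3A lost its call at 0.11, where the median over all tested genes moved to -0.71. At a fold of at least 2, which is stricter by construction, 0 genes were higher. TET3, at -0.02, reversed to 0.015 with at least 10 counts in every library and ranged from -0.078 to 0.0007 with each library left out in turn, all short of the threshold. It passed as lower with library size only (-0.13) and with the mitochondrial scaling (-0.76). With library size only, the median over all tested genes was -0.08, against 0.03 in the main fit, and the cause of the call was not tested. Same-numbered libraries did not deviate together (correlations of -0.0208, 0.0417 and 0.0316), and with the number as a replicate block 6 genes were lower and 2 higher, as without it. The 7 ratios kept their direction with each library left out in turn, and the one that moved most, TET3 to TET2, ranged from 1.35 to 1.63 on the log2 scale. Of 182 alternative counts for the lists, 16 moved by over 1.5 times, and 11 of these under the mitochondrial scaling. Depth kept no member from being tested, since each had at least 85 counts. TET1, with the fewest counts (85 to 117 with AZD4573), had the largest SE of the members (0.157). The 3 libraries a group limit the exact tests to p = 0.10.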

Other observations

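The spans of the 9 genes on the genome are given beside their responses as values, and no relation was tested. DNMT3A (114.7 kb from first to last base), TET3 (123.3 kb), TET2 (133.9 kb) and TET1 (134.2 kb) had log2 fold changes of 0.84, -0.02, -1.47 and -2.08, in this order. Over the 1574 tested protein-coding genes of 100 to 200 kb, the median log2 fold change was -0.14 (quartiles -0.65 and 0.37). UHRF1 (59.1 kb), MBD2 (73.1 kb), UHRF2 (93.9 kb) and DNMT1 (97.9 kb) had log2 fold changes of -1.03, -0.23, -0.48 and 0.27, where the median of 2386 genes of 50 to 100 kb was -0.22. DNMT3B (47.0 kb) had a log2 fold change of -1.05, where the median of 2821 genes of 25 to 50 kb was -0.12. These values describe 1 time point and 1 cell line.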
